A study of Mus musculus with 16 samples.

Results

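The genes described here are the 40 that encode the aminoacyl-tRNA synthetases of mouse and 3 close partners: 21 cytosolic synthetase genes, the scaffold genes Aimp1 and Aimp2, the tRNA export receptor Xpot, and 16 mitochondrial synthetase genes. They were taken by symbol. A symbol ending in 2 was counted as mitochondrial, except Aimp2, which is a scaffold, and Tarsl2, which is a second cytosolic threonyl enzyme. All 40 were found among the 19108 genes in the files, and all 40 were among the 13666 genes with enough counts to be tested, so no member was lost to the filter on low counts. The cytosolic set has 24 members and the mitochondrial set 16.

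The libraries came from quadriceps muscle of C57BL/6 mice aged 6 months. The 4 groups were ANT1(Tg)/+ males, wild-type (WT) males, ANT1(Tg)/+ females and WT females, with 4 mice in each. The ANT1(Tg)/+ mice, called Tg below, carry a transgene for Ant1, now named Slc25a4, which encodes the muscle form of the mitochondrial ADP/ATP carrier. All mice were fed regular chow. Littermate controls were used if available, and the labels do not say which mice were related. The promoter that drives the transgene is not given in the sources used here.

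Aminoacyl-tRNA synthetases join each amino acid to its own tRNA, the step that makes the charged tRNA used by ribosomes. Most amino acids have one nuclear gene for the cytosolic enzyme and another for the enzyme imported into mitochondria, where a small set of proteins of the respiratory chain is made. Gars and Kars each encode both forms, and mammals have no separate mitochondrial glutaminyl enzyme. Some cytosolic enzymes sit together in the multisynthetase complex, held by the scaffold proteins encoded by Aimp1, Aimp2 and Eef1e1. Transcripts of many cytosolic synthetases are known targets of ATF4, a transcription factor of the amino acid and stress response. ATF4 and its partners bind composite elements of the form TGATGNAA.

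Promoter windows of RefSeq (build GRCm38.p6), running from 250 bases before to 50 bases after each start, were matched for 31 of the 40 members, 17 cytosolic and 14 mitochondrial. Those not matched were Cars, Hars, Lars, Nars, Rars, Vars, Wars, Hars2 and Pars2. The letters TGATGNAA, or TTNCATCA for the other strand, were searched on both strands. They were present in 5 of the 17 cytosolic windows (29.4%) and in 0 of the 14 mitochondrial windows. Across all genes of the same table the letters were present in 1219 of 27025 (4.51%), and across all windows in 1304 of 32851 (3.97%). A stretch that holds a match is shown for each of these 5 genes, which were all called higher in Tg muscle, as given below. Of the 17 matched cytosolic members 12 were called higher, and 5 of those 12 (41.7%) held the letters. Sars, Xpot and Mars, also called higher, were matched and did not hold them. The capitals mark the matched letters, and each sequence runs 5′ to 3′ on the strand of the gene. The windows for Aars, Iars and Yars were added after the matches were seen.
Gars: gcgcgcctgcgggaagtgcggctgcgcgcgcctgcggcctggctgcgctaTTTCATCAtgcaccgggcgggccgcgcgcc
Yars: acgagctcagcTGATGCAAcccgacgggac
Aars: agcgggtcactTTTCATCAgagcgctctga
Iars: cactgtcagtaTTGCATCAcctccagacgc
Tars: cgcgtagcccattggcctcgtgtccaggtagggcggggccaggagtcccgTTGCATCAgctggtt
The Gars stretch lies at chr6:55037921-55038000 on the plus strand, with the element 30 bases upstream of the start. The Yars stretch is chr4:129189895-129189924 on the plus strand, with the element 3 bases downstream of the start. The Aars stretch is chr8:111033840-111033869 on the plus strand, with the element 9 bases downstream of the start. Aars also holds a second match, not printed above, 112 bases upstream of the start and in the same orientation as its first. The Iars stretch is chr13:49682126-49682155 on the plus strand, 7 bases downstream of the start, and the Tars stretch is chr15:11399659-11399723 on the minus strand, 15 bases upstream. Yars carries the letters in the orientation of the gene and the other 4 genes carry them in the opposite orientation. A match describes letters in a window and is no evidence of binding.

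The depth of the 16 libraries was 17.4 to 30.7 times 1000000 counts. Levels are counts per 1000000 (CPM) on library sizes scaled by TMM, and the lowest member count in any library was 48, for Pars2. Slc25a4 was at 8507 to 11042 CPM in Tg libraries, against 2792 to 3919 CPM in WT libraries, a ratio of 2.88 (adjusted p = 4.88e-10). The tissue label was checked against fixed markers: the 6 muscle fibre markers summed to 119898 to 174004 CPM in Tg libraries and 130059 to 206120 CPM in WT libraries. The 8 adipocyte markers summed to 481 to 2216 CPM in Tg libraries and 576 to 4229 CPM in WT libraries. None of the markers was at 0 in every library, and the 4 lymphocyte markers summed to at most 0.854 CPM. No batch or date is labelled. Fewer cells of a type and less RNA per cell cannot be told apart in these bulk samples.

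Transcripts of the cytosolic set were higher in Tg muscle for 18 of 24 members, lower for 2 and not called for 4. Calls were made at an adjusted p under 0.05 (Benjamini-Hochberg, over all 13666 genes) with edgeR's quasi-likelihood F test of the Tg minus WT difference averaged over both sexes. Adjusted p-values in the text come from this kind of test unless DESeq2 is named beside them. Of all tested genes, 17.2% were called higher and 13.3% lower. The median log2 fold change was 0.74 over the 24 cytosolic members, 0.16 over the 16 mitochondrial members and -0.01 over all tested genes. In the mitochondrial set 6 members were higher, 0 were lower and 10 were not called. Every Tg library was above every WT library for 16 cytosolic and 2 mitochondrial members, which was so for 5.23% of all tested genes. Every Tg library was below every WT library for 1 cytosolic member, Aimp2, and 0 mitochondrial members, against 2.69% of all tested genes.

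**Figure D1:**
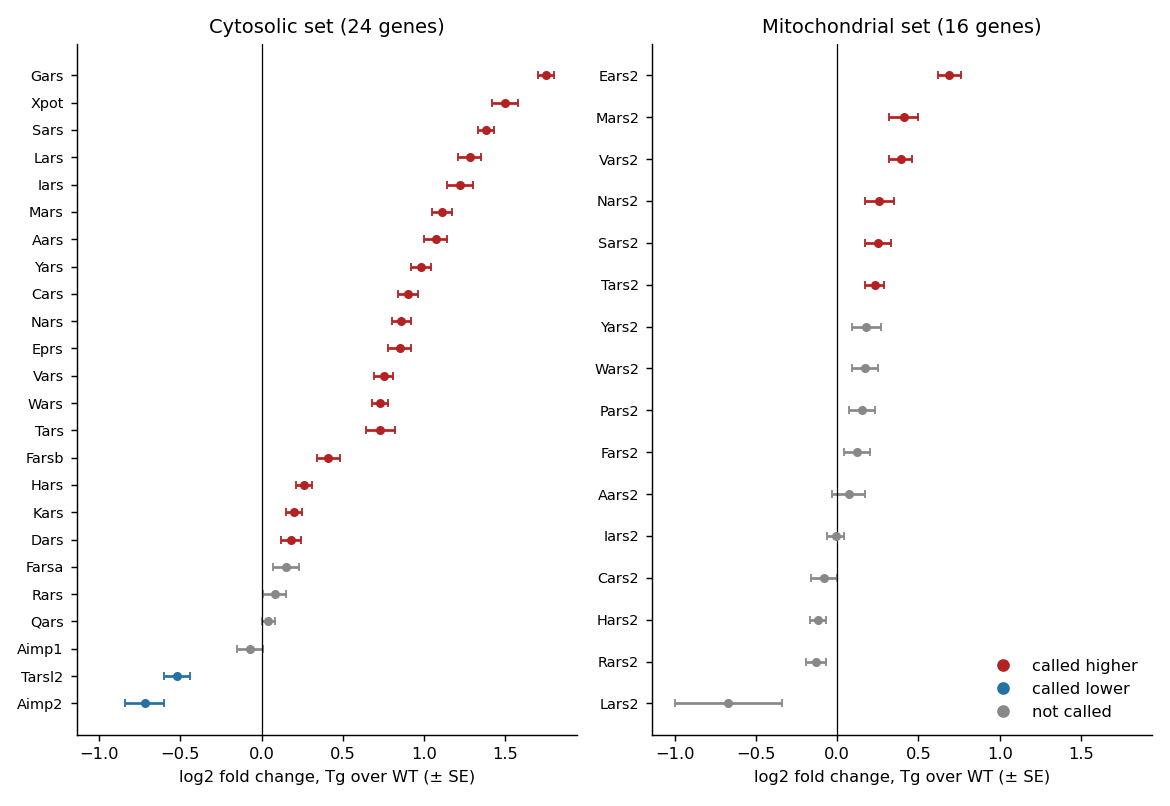
Log2 fold change of each member, Tg over WT averaged over the sexes, with its standard error, for the cytosolic and the mitochondrial set. Cytosolic values run between -0.72 (Aimp2) and 1.75 (Gars) and mitochondrial values between -0.67 (Lars2) and 0.69 (Ears2).

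Of the free enzymes, Gars, the glycyl-tRNA synthetase of both compartments (chromosome 6, 55038007 to 55079500, plus strand, GENCODE M21 on mm10), had the smallest adjusted p of the 40. Gars was at 222 to 258 CPM in Tg libraries (median 234) and at 61.7 to 75.7 CPM in WT libraries (median 71.0). The lowest Tg library was far above the highest WT library, and each group of 8 kept within a narrow band. The log2 fold change was 1.75 (SE 0.05, adjusted p = 2.25e-13). Relative to transcript length, Gars stood at 98.9 ± 5.11 CPM per kb in Tg muscle and 29.3 ± 1.76 CPM per kb in WT muscle (SD, n = 8 each).

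Sars, the seryl enzyme (chromosome 3, 108424865 to 108445209, minus strand), which also loads serine onto the tRNA for selenocysteine, followed. Sars was at 225 to 256 CPM in Tg libraries (median 241), against 83.2 to 107 CPM in WT libraries (median 92.1), with no overlap. Its log2 fold change was 1.38 (SE 0.05, adjusted p = 1.76e-12). Yars, the tyrosyl enzyme, was at 93.2 to 114 CPM in Tg libraries (median 96.6) and 42.0 to 57.3 CPM in WT libraries (median 52.4). The Yars groups were apart in all libraries, with a log2 fold change of 0.98 and an SE of 0.06 (adjusted p = 8.74e-09).

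Iars and Lars, the isoleucyl and leucyl enzymes, and Mars, the methionyl enzyme, belong to the multisynthetase complex. Lars (chromosome 18, 42202298 to 42262194, minus strand) was at 117 to 159 CPM in Tg libraries (median 133) and at 48.5 to 63.8 CPM in WT libraries (median 55.0). All 8 Tg libraries were above all 8 WT libraries, and the log2 fold change was 1.28 (SE 0.07, adjusted p = 1.06e-09). Mars was at 153 to 196 CPM in Tg libraries (median 167) and at 73.1 to 93.2 CPM in WT libraries (median 78.6). Its groups were likewise apart, with a log2 fold change of 1.11 and an SE of 0.06 (adjusted p = 1.77e-09). Mars shares 68 exonic bases with Ddit3, which lies on the opposite strand and was at 26.2 to 41.5 CPM in Tg libraries and 2.94 to 10.1 CPM in WT libraries. Whether the counting used strand is not given in the sources used here, so reads in those bases cannot be told apart. The same holds for the other members that share exonic bases with a gene on the opposite strand. These are Aars, Cars, Farsb, Hars, Yars, Aimp1, Aimp2, Cars2, Ears2, Fars2, Hars2, Iars2, Nars2 and Vars2. Tarsl2 and again Aars share some with a gene on their own strand, and the largest overlap of Aars was 1326 bases.

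**Figure D2:**
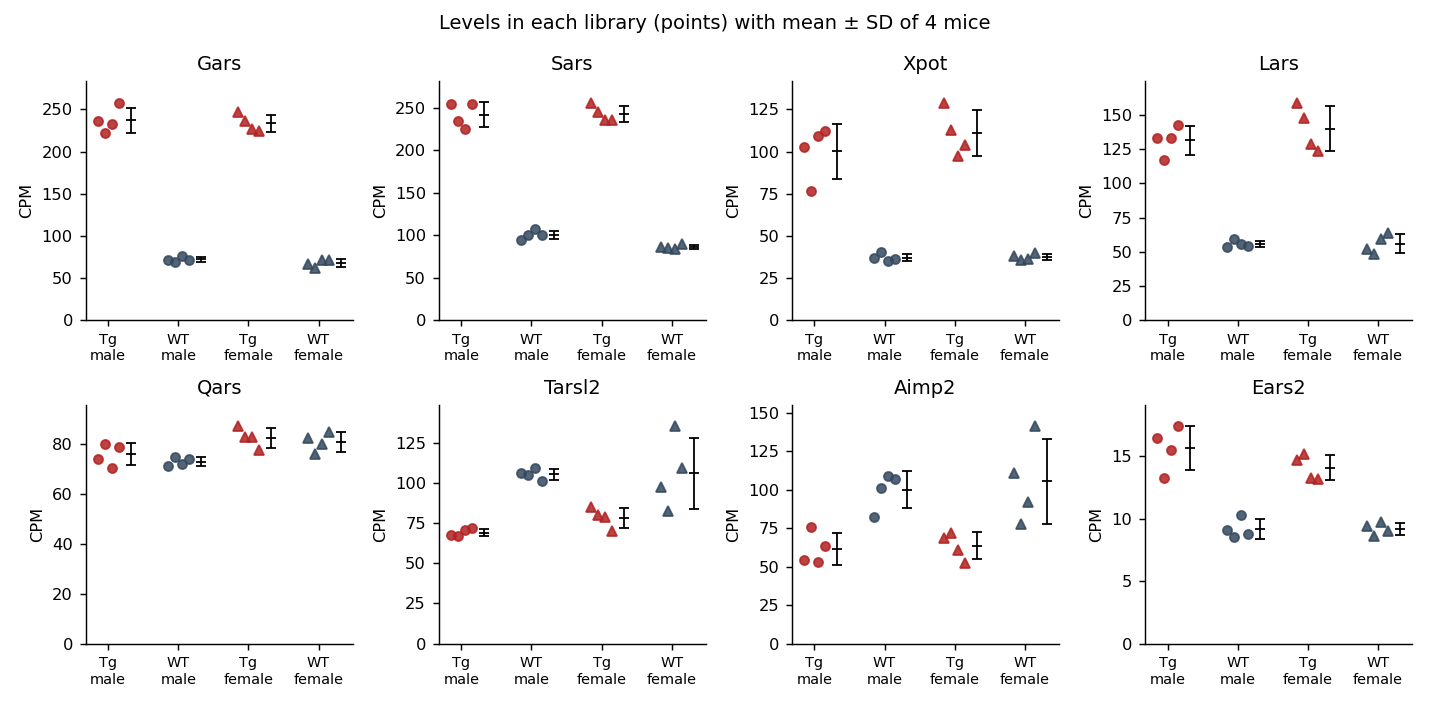
CPM in each library for Gars, Sars, Xpot, Lars, Qars, Tarsl2, Aimp2 and Ears2, by group (circles for males, triangles for females), with the mean and SD of 4 mice. Gars, Sars, Xpot, Lars and Ears2 lie higher in all Tg libraries, Aimp2 lies lower in all of them, Tarsl2 overlaps in 1 Tg library and the 2 genotypes of Qars lie over each other.

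The other called cytosolic enzymes covered a wide range of ratios. Iars had a log2 fold change of 1.22, Aars (alanyl) 1.07, Cars (cysteinyl) 0.90, Nars (asparaginyl) 0.86, Eprs (the joined glutamyl and prolyl enzyme) 0.85 and Vars (valyl) 0.75. Wars (tryptophanyl) and Tars (threonyl) were each at 0.73. All 8 had Tg libraries entirely above WT libraries, as did Farsb at 0.41 and Hars (histidyl) at 0.26. A further pair were called with small differences. Kars, the lysyl enzyme of both compartments, was at 111 to 133 CPM in Tg libraries (median 121) and 93.0 to 116 CPM in WT libraries (median 103), with a log2 fold change of 0.20 and an SE of 0.05 (adjusted p = 0.00841). Dars, the aspartyl enzyme, was at 79.3 to 106 CPM in Tg libraries (median 87.9) and 73.0 to 97.9 CPM in WT libraries (median 76.6), with a log2 fold change of 0.18 and an SE of 0.06 (adjusted p = 0.0366). The Kars and Dars groups overlapped. Leaving out 1 library took the Dars call away in 12 of 16 cases, all but those of Tg male 2, Tg female 4, WT female 3 and WT female 4, with adjusted p between 0.0143 and 0.0790 over the 16.

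Qars, the glutaminyl enzyme, and Rars, the arginyl enzyme, were the 2 synthetases of the complex that were not called. Qars was at 70.5 to 87.0 CPM in Tg libraries (median 79.5) and 71.1 to 84.9 CPM in WT libraries (median 75.3), a log2 fold change of 0.04 with an SE of 0.04 (adjusted p = 0.481). Rars was at 49.3 to 66.0 CPM in Tg libraries (median 53.8) and 43.9 to 63.9 CPM in WT libraries (median 50.7), a log2 fold change of 0.08 with an SE of 0.07 (adjusted p = 0.449). The ranges of the genotypes nearly coincided for Qars. For Rars they overlapped over most of their length, with the WT range reaching lower. The phenylalanyl enzyme is built of a catalytic alpha subunit and a beta subunit. Its alpha subunit gene Farsa was at 21.1 to 27.3 CPM in Tg libraries (median 22.7) and 16.0 to 24.8 CPM in WT libraries (median 21.6), with a log2 fold change of 0.15 and an SE of 0.08 (adjusted p = 0.180). Without WT female 4 Farsa was called higher, at 0.21 (adjusted p = 0.0352). The beta subunit gene Farsb was at 73.3 to 93.4 CPM in Tg libraries and 51.2 to 70.8 CPM in WT libraries, with no overlap (adjusted p = 0.000186). The difference between the subunits was not tested.

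Tarsl2 was the cytosolic synthetase called lower. Tarsl2 was at 66.9 to 84.9 CPM in Tg libraries (median 71.1), against 82.6 to 135 CPM in WT libraries (median 105), and 7 of 8 Tg libraries lay below the lowest WT library. Its log2 fold change was -0.52 (SE 0.08, adjusted p = 0.000101). Tars, the other cytosolic threonyl gene, was at 76.5 to 101 CPM in Tg libraries (median 79.0) and 40 to 66.0 CPM in WT libraries (median 51.8), higher in every Tg library (adjusted p = 2.22e-05).

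By structural class, 7 of 9 class I cytosolic enzymes were called higher and 0 lower, with a median log2 fold change of 0.90. Of 11 class II genes, 9 were higher and 1 was lower, with a median of 0.41. Eprs joins a class I and a class II enzyme and stands in neither count. Of the 8 synthetase genes of the complex, 6 were higher and 0 lower (median 0.53), and of the 13 outside it 11 were higher and 1 lower (median 0.75). No test between these subsets was run.

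Of the scaffolds, Aimp2 was lower in Tg muscle and Aimp1 was not called. Aimp2 (chromosome 5, 143902704 to 143909847, minus strand) was at 52.3 to 75.6 CPM in Tg libraries (median 62.0), against 77.6 to 141 CPM in WT libraries (median 104). All Tg libraries lay below all WT libraries, with a log2 fold change of -0.72 and an SE of 0.12 (adjusted p = 0.000300). It shares 487 exonic bases with Eif2ak1 on the opposite strand, which was at 51.5 to 70.3 CPM in Tg libraries and 56.1 to 78.3 CPM in WT libraries (ratio 0.908, adjusted p = 0.126). Aimp1 was at 64.9 to 87.3 CPM in Tg libraries (median 74.4) and 65.4 to 93.3 CPM in WT libraries (median 78.4), a log2 fold change of -0.07 with an SE of 0.08 (adjusted p = 0.532). The third scaffold, Eef1e1, was higher at 14.2 ± 2.06 CPM in Tg muscle, against 10.7 ± 1.78 CPM in WT muscle (SD, n = 8 each; adjusted p = 0.00486).

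Xpot, the exportin that carries mature tRNA out of the nucleus (chromosome 10, 121587380 to 121626332, minus strand), was also higher in Tg muscle. Xpot was at 76.4 to 129 CPM in Tg libraries (median 107) and at 35.0 to 40.4 CPM in WT libraries (median 36.7). The WT libraries were close together and the Tg libraries spread more widely, with Tg male 2 lowest and Tg female 1 highest. The log2 fold change was 1.5 (SE 0.08, adjusted p = 8.61e-10).

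Levels between genes were compared per kb of the longest principal coding transcript of GENCODE M21. In Tg muscle the cytosolic transcripts with the highest levels were Eprs at 104 ± 11.3, Gars at 98.9 ± 5.11 and Nars at 91.8 ± 7.72 CPM per kb. In WT muscle the highest were Aimp2 at 86.7 ± 16.8, Aimp1 at 69.6 ± 7.90 and Eprs at 57.7 ± 4.92 CPM per kb (SD, n = 8 in each case). Aimp2 and Aimp1 headed the order in WT muscle, ahead of every synthetase, and Aimp2 was at 52.7 ± 7.64 CPM per kb in Tg muscle. Aimp2 shares 487 and Aimp1 163 exonic bases with a gene on the opposite strand. The part of those bases in the 2 levels was not tested. The lowest of the set in Tg muscle was Farsa, at 12.8 ± 1.1 CPM per kb, and the lowest in WT muscle was Xpot, at 6.22 ± 0.328 CPM per kb. Neighbours in these orders lie within their SDs of each other in several cases and were not tested.

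The 21 cytosolic synthetase genes together took 3040 ± 214 CPM in Tg libraries and 1719 ± 112 CPM in WT libraries (SD, n = 8 each), a ratio of 1.77. The Tg range was 2825 to 3386 CPM and the WT range 1500 to 1862 CPM. Among Tg libraries, Tg female 1 had the highest level for 11 of the 18 called members and Tg male 2 the lowest for 7. Among WT libraries, WT female 2 had the lowest level for 12, and it was also the library with the highest adipocyte marker sum (4229 CPM). The part of that marker sum in these levels was not tested. Without the 4 libraries with the highest adipocyte marker sums (Tg male 2, WT male 1, WT female 1 and WT female 2), 16 cytosolic members were called higher and 3 lower, with a median log2 fold change of 0.704. The calls lost there were Dars (adjusted p = 0.110) and Kars (adjusted p = 0.0567), and Aimp1 was called lower at -0.19 (adjusted p = 0.0448).

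**Figure D3:**
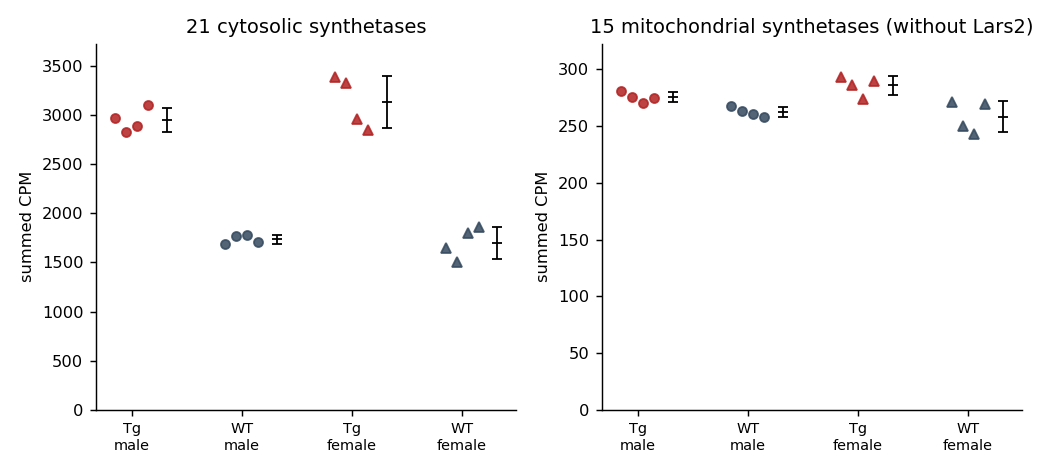
Summed CPM per library of the 21 cytosolic synthetase genes and of 15 mitochondrial synthetase genes (Lars2 left out), by group. Cytosolic sums are 2825 to 3386 in Tg libraries and 1500 to 1862 in WT libraries, and mitochondrial sums are 270 to 293 in Tg libraries and 243 to 271 in WT libraries.

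Among the mitochondrial enzymes, Ears2 had the largest called difference. Ears2 charges both glutamate and glutamine tRNA of mitochondria, the second being converted by an amidotransferase. It was at 13.2 to 17.4 CPM in Tg libraries (median 14.9) and 8.58 to 10.3 CPM in WT libraries (median 9.04), with no overlap and a log2 fold change of 0.69 with an SE of 0.07 (adjusted p = 1.20e-06). Vars2, the valyl enzyme, was at 13.3 to 16.6 CPM in Tg libraries (median 15.2) and 9.23 to 12.9 CPM in WT libraries (median 11.7). Its groups also did not overlap, and the log2 fold change was 0.39 (SE 0.07, adjusted p = 0.000524).

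The 4 other called mitochondrial members overlapped between genotypes. Mars2, the methionyl enzyme, was at 5.43 to 7.42 CPM in Tg libraries (median 6.06) and 4.01 to 5.74 CPM in WT libraries (median 4.61), with a log2 fold change of 0.41 and an SE of 0.09 (adjusted p = 0.00178). Tars2, the threonyl enzyme, was at 28.7 to 35.2 CPM in Tg libraries (median 30.8) and 24 to 30.9 CPM in WT libraries (median 26.4), with a log2 fold change of 0.23 and an SE of 0.06 (adjusted p = 0.00553). Of the Tg libraries, 5 of 8 libraries were above the highest WT library for Mars2, and 4 of 8 for Tars2. Sars2, the seryl enzyme, was at 12.3 to 14.9 CPM in Tg libraries and 9.07 to 13.5 CPM in WT libraries (log2 fold change 0.25, SE 0.08, adjusted p = 0.0242). Nars2, the asparaginyl enzyme, was at 6.35 to 8.66 CPM in Tg libraries and 5.12 to 6.98 CPM in WT libraries (log2 fold change 0.26, SE 0.09, adjusted p = 0.0337). Leaving out 1 library ended the Nars2 call in 10 of 16 cases (adjusted p up to 0.0695), all but those of Tg male 2, Tg male 3, Tg female 3, WT male 1, WT male 2 and WT female 2. The Sars2 call ended without Tg female 4 or without WT male 1 (adjusted p up to 0.0634). Without the 4 adipocyte-rich libraries 4 mitochondrial members were called higher and 0 lower, with a median log2 fold change of 0.118. The calls lost there were Sars2 (adjusted p = 0.15) and Tars2 (adjusted p = 0.0502).

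The 10 mitochondrial members not called had log2 fold changes between -0.67 and 0.18. Iars2, the isoleucyl enzyme, was at 70.2 to 85.1 CPM in Tg libraries (median 77.0) and 71.9 to 86.8 CPM in WT libraries (median 78.7), a log2 fold change of -0.01 with an SE of 0.05 (adjusted p = 0.904). Aars2, the alanyl enzyme, was at 17.5 to 23.9 CPM in Tg libraries (median 22.7) and 14.1 to 24.8 CPM in WT libraries (median 21.3), a log2 fold change of 0.07 with an SE of 0.10 (adjusted p = 0.656). Rars2, Hars2 and Cars2 were at -0.13, -0.12 and -0.08, and Fars2, Pars2, Wars2 and Yars2 at 0.12 to 0.18, with adjusted p of 0.10 to 0.461 over the 7. Without WT female 2 Rars2 was called lower, at -0.16 (adjusted p = 0.0468). Exons of Hars2 and Hars share 195 bases on opposite strands.

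Lars2, the leucyl enzyme, was the mitochondrial member with the highest level, and 2 WT libraries set its spread. It was at 65.4 to 135 CPM in Tg libraries (median 120) and 98.4 to 431 CPM in WT libraries (median 125), a log2 fold change of -0.67 with an SE of 0.33 (adjusted p = 0.151). WT female 1 had 431 CPM and WT male 1 had 296 CPM, while the other 6 WT libraries were at 98.4 to 131 CPM. The same 2 libraries had the highest levels of Rn45s, the ribosomal RNA precursor, at 4163 CPM in WT female 1 and 3034 CPM in WT male 1, against 373 to 1047 CPM in the other 14 libraries. Their adipocyte marker sums were 3370 CPM in WT female 1 and 4135 CPM in WT male 1. The highest adipocyte marker sum, 4229 CPM, was in WT female 2, which had 108 CPM of Lars2 and 775 CPM of Rn45s. Among the other 14 libraries, Tg male 3 was lowest both in Lars2 (65.4 CPM) and in Rn45s (373 CPM). Tg female 1 was highest of the 14 in Lars2, at 135 CPM with 862 CPM of Rn45s. WT male 4 was highest of the 14 in Rn45s, at 1047 CPM with 127 CPM of Lars2. The part of ribosomal RNA or of adipocytes in the Lars2 values was not tested. The log2 fold change was -0.28 without WT female 1, -0.44 without WT male 1 and -0.079 without the 4 adipocyte-rich libraries.

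**Figure D4:**
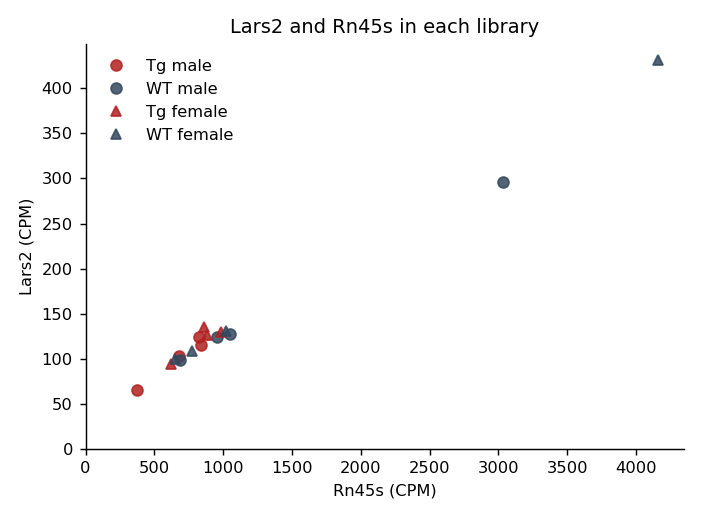
Lars2 CPM against Rn45s CPM in each of the 16 libraries, by genotype. WT female 1 (431 and 4163 CPM) and WT male 1 (296 and 3034 CPM) stand apart from the other 14 libraries, which have 65.4 to 135 CPM of Lars2 and 373 to 1047 CPM of Rn45s.

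The 16 mitochondrial genes together took 392 ± 30.2 CPM in Tg libraries and 437 ± 128 CPM in WT libraries (SD, n = 8 each). Without Lars2 the remaining 15 took 281 ± 8.28 CPM in Tg libraries and 260 ± 9.77 CPM in WT libraries, a ratio of 1.08, with ranges of 270 to 293 CPM in Tg libraries and 243 to 271 CPM in WT libraries that just overlapped. The mitochondrial genes with the highest levels per kb after Lars2 were Iars2 (14.3 ± 0.94 in Tg muscle and 14.4 ± 0.881 in WT muscle) and Tars2 (13 ± 0.957 in Tg muscle and 11 ± 0.894 in WT muscle). The lowest was Mars2, at 0.553 ± 0.0624 CPM per kb in Tg muscle and 0.413 ± 0.0534 CPM per kb in WT muscle, over a transcript of 11294 bases.

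Cytosolic and mitochondrial enzymes for the same amino acid could be set side by side in 15 pairs, with Eprs used for both glutamate and proline. Phenylalanine was not paired, since its cytosolic enzyme has 2 genes, Farsa at a log2 fold change of 0.15 and Farsb at 0.41, beside Fars2 at 0.12. The cytosolic log2 fold change was above the mitochondrial one in all 15 pairs, by a median of 0.70. This is a description of 14 cytosolic genes that are not independent of each other, and the differences were not tested. In 10 pairs the ratio of cytosolic to mitochondrial level per kb was higher in every Tg library than in every WT library. For isoleucine, the ratio of Iars to Iars2 was 3.69 to 4.83 in Tg libraries (median 4.38), against 1.51 to 2.44 in WT libraries (median 1.87). For serine, the ratio of Sars to Sars2 was 8.20 to 10.6 in Tg libraries (median 9.58), against 3.48 to 4.80 in WT libraries (median 4.43). Neither pair overlapped between genotypes. The glutamate, asparagine, proline, arginine and valine pairs overlapped. For glutamate, Eprs at 0.85 and Ears2 at 0.69 gave the smallest difference of log2 fold changes among the 15 pairs, 0.15, and a ratio of 12.7 to 16.4 in Tg libraries and 11.6 to 15.6 in WT libraries. The widest difference, 1.95 for Lars and Lars2, includes the 2 high WT libraries.

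**Figure D5:**
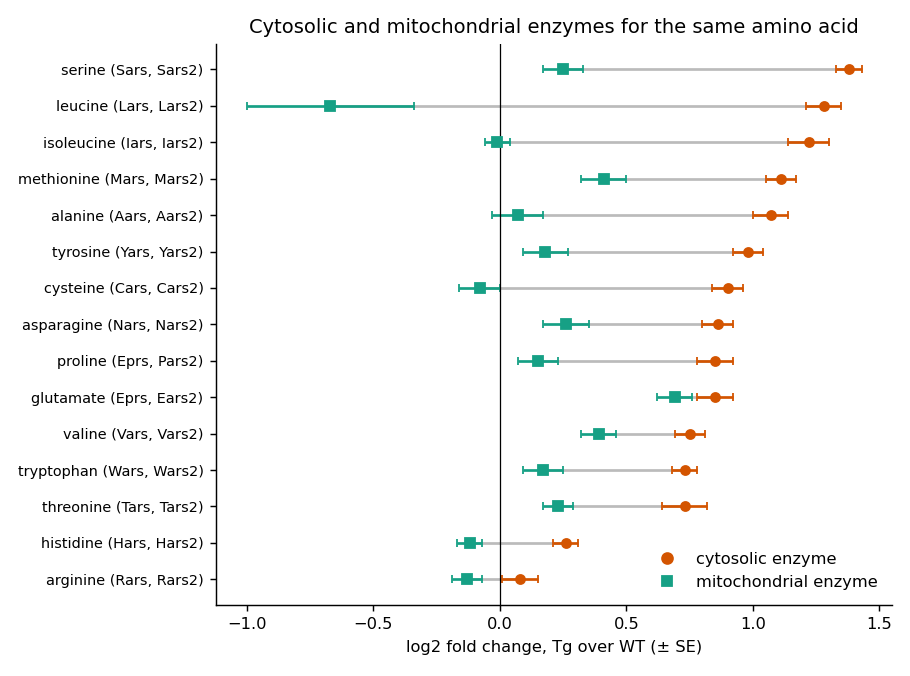
Log2 fold change, Tg over WT, of the cytosolic and the mitochondrial enzyme for each of 15 amino acids, joined by a line, with bars of 1 SE. The cytosolic value is higher in all 15, by 0.15 for glutamate up to 1.95 for leucine.

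The genotype difference was also taken within each sex. In males 18 of 40 members were called higher and 2 lower, against 9.84% and 8.39% of all tested genes. In females 20 were called higher and 2 lower, against 10.1% and 7.57% of all tested genes. Gars had a log2 fold change of 1.72 in males and 1.79 in females, Xpot 1.43 in males and 1.56 in females, and Lars 1.24 in males and 1.33 in females, each with an SE of at most 0.11. The test of the male minus female genotype difference called 0 of the 40 members, with 2 at an unadjusted p under 0.05, and DESeq2 and limma-voom also called 0. Of all tested genes 0.00732% were called. The smallest adjusted p was 0.596, for Sars, at -0.23 (SE 0.09), and Aars had -0.35 (SE 0.14, adjusted p = 0.607). The male minus female estimate was below 0 for 19 of 24 cytosolic and 11 of 16 mitochondrial members, and for 6209 of the 13666 tested genes.

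Males and females of 1 genotype were also compared. In Tg muscle 0 of 40 members were called, with 3 at an unadjusted p under 0.05, and 0 were called by DESeq2 and limma-voom, against 0.527% of all tested genes by edgeR. In WT muscle edgeR called 0 of 40, with 4 at an unadjusted p under 0.05, against 3.67% of all tested genes. DESeq2 called 1 of 40 there, Sars, with a male minus female log2 difference of 0.24 (SE 0.06, adjusted p = 0.00510), and limma-voom called 0. Sars was at 94.5, 99.8, 107 and 100 CPM in WT males, against 86.2, 85.4, 83.2 and 89.8 CPM in WT females, so the WT sexes did not overlap. In Tg males Sars was at 255, 234, 225 and 254 CPM, against 256, 245, 236 and 236 CPM in Tg females, which overlapped.

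Other genes of the tRNA pathway were followed in 7 lists, read against the 17.2% of all tested genes called higher and 13.3% called lower. Of 38 genes for modification of cytosolic tRNA, 16 were higher and 0 lower, with a median log2 fold change of 0.18. Trmt61a, the catalytic part of an adenosine methyltransferase, was at 5.2 ± 0.643 CPM in Tg muscle and 2.92 ± 0.394 CPM in WT muscle (adjusted p = 2.09e-05). Mettl1, a guanosine methyltransferase, was at 13.3 ± 0.653 CPM in Tg muscle and 7.86 ± 1.53 CPM in WT muscle (adjusted p = 3.76e-05). Trmt1, another guanosine methyltransferase, was at 53.7 ± 4.53 CPM in Tg muscle and 38.8 ± 3.90 CPM in WT muscle (SD, n = 8 throughout; adjusted p = 7.34e-05). All 3 sets of Tg libraries lay above the WT libraries.

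Of 14 genes for tRNA export and delivery to ribosomes, 9 were higher and 1 lower (median 0.21). Eef1b2 and Eef2, both elongation factors, and Ran, the GTPase of nuclear transport, had log2 fold changes of 0.43, 0.52 and 0.35 (adjusted p at most 0.000272). Eef1g, another subunit of the exchange factor that contains Eef1b2, was lower at -0.26 (SE 0.05, adjusted p = 0.00188). Of 16 genes for processing and modification of mitochondrial tRNA, 6 were higher and 1 lower (median 0.14). Pus1, Yrdc and Gtpbp3 were at 0.55, 0.54 and 0.48, and Osgepl1, which acts with Yrdc in making the same modified adenosine of mitochondria, was at -0.30 (adjusted p = 0.00212).

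Of 25 genes of RNA polymerase III, which transcribes tRNA genes, and of its factors and regulators, 9 were higher and 4 lower (median 0.07). Polr3d and Polr3b were at 0.52 and 0.28, and Polr3k was at -0.38 (adjusted p = 0.00389). Of 23 tested genes for end processing and splicing of tRNA, 4 were higher and 1 lower (median 0.14). The 3 higher genes with the smallest adjusted p were Elac2 at 0.35, Tsen15 at 0.40 and Rtcb at 0.20, and Rpp14 was at -0.19. Of 14 charging partners and proofreading enzymes, 4 were higher and 0 lower (median 0.13). Eef1e1, Dtd1 and Gatb were at 0.41, 0.29 and 0.23.

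Of 5 genes that sense uncharged tRNA or pass on that signal, 2 were higher and 0 lower. Atf4 was at 330 ± 17.1 CPM in Tg muscle and 150 ± 18.9 CPM in WT muscle (SD, n = 8 each), with Tg libraries at 300 to 353 CPM, WT libraries at 125 to 177 CPM and a log2 fold change of 1.15 with an SE of 0.05 (adjusted p = 1.57e-10). Gcn1l1, the partner of the sensor kinase, was at 0.45 (SE 0.07, adjusted p = 0.000259). The sensor kinase gene Eif2ak4 was at 8.0 ± 0.890 CPM in Tg muscle and 8.64 ± 0.630 CPM in WT muscle (log2 fold change -0.11, SE 0.08, adjusted p = 0.310).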

How the data were processed

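RNA of 16 quadriceps, 1 per mouse, was sequenced as stranded poly(A) libraries, per the labels' protocols. The deposited values are taken as estimated counts per gene, since they are not negative, partly fractional and differ in total. Among 640 member values 113 were not whole (tolerance 0.01), and rounding moved none by more than 0.42. Per the submitters' processing notes, bcl2fastq, cutadapt 1.2.1, TopHat2, Bowtie2 and build mm10 were used. The sources used here do not name the counting program, its annotation or its use of strand.

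Rounded counts were tested in R 4.3.3 with edgeR 4.0.16: TMM scaling, filterByExpr (minimum count 10, minimum total 15), 1 mean per group over all 16 libraries, robust quasi-likelihood F tests, two-sided, and Benjamini-Hochberg adjustment over 13666 genes. The biological coefficient of variation was 0.201. The SE was the log2 fold change over the square root of F. DESeq2 1.42.0 and limma 3.58.1 served as alternatives, among 27 in all. The scripts were tested on simulated data.

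The members and lists were chosen with earlier results of these data known. Values in each group are given for the 6 cytosolic members with the smallest adjusted p, all uncalled cytosolic members, the scaffolds and Xpot, the 4 mitochondrial members with the smallest adjusted p among those called, the uncalled one with the highest level, and members whose call or direction changed under an alternative. Of each pathway list, up to 3 called genes are named; some items that these rules take are not reported here. Genes that were named after their values were seen are those lower in a list, Farsb, Tars, Eif2ak4, Ddit3, Eif2ak1 and Rn45s. The precision of low levels is limited by counting error. Positions and transcript lengths are from GENCODE M21.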

Additional observations from a re-analysis of the deposited data

Results flagged for a closer look

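In 160 groups of 4 libraries (40 members in 4 groups), 10 held a library whose gap to its nearest neighbour, as a share of the group's range, was above Dixon's critical value for groups of this size. Chance gives about 1 in 20 groups, which is 8 of 160. Lars2 was at 431 CPM in WT female 1, with the other WT females at 99.4 to 131 CPM. Lars2 was at 296 CPM in WT male 1, with the other WT males at 98.4 to 127 CPM. In WT males, Cars was at 50.2 CPM in WT male 3 (others 42.0 to 42.8 CPM), Pars2 at 2.72 CPM in WT male 1 (others 2.95 to 2.98 CPM) and Tars2 at 25.5 CPM in WT male 1 (others 26.4 to 26.6 CPM).

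In Tg male 2, Dars was at 79.3 CPM (other Tg males 87.5 to 87.9 CPM) and Kars at 126 CPM (others 116 to 117 CPM). In Tg females, Wars was at 60.1 CPM in Tg female 2 (others 67.0 to 68.1 CPM). Tg female 3 stood apart in Aars2 at 19.0 CPM (others 23.0 to 23.6 CPM) and in Fars2 at 23.0 CPM (others 20.3 to 20.7 CPM).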

How the results depend on the processing

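Of the 40 members, 28 kept their direction and their side of the threshold in all 25 alternatives run on the averaged difference, among them 21 of the 26 called members. Over the settings other than leaving out 1 library, cytosolic members called higher were 16 to 18 and called lower 2 to 3. No member was called lower in the mitochondrial set except Rars2 without WT female 2, where 1 was (log2 fold change -0.16, adjusted p = 0.0468; range 0 to 1 when 1 library was left out). In females, 1 member was called lower with only the 8 female libraries. Male against female in WT gave 1 call with upper-quartile scaling (Sars), with DESeq2 (Sars) and without the 4 adipocyte-rich libraries (Dars), and 0 to 1 when 1 library was left out (Sars without WT male 1, Aars without WT female 4). Without the 4 adipocyte-rich libraries Qars was at -0.0048 and Rars at -0.027. Iars2 was at 0.026 there, at 0.016 with the adipocyte marker sum as covariate and at -0.028 to 0.0075 when 1 library was left out. Aars2 ranged over -0.002 to 0.12 when 1 library was left out, the lowest without WT female 3. Dars lost its call in 15 of the 25 alternatives. Kars lost its call without the 4 libraries (adjusted p = 0.0567), where Aimp1 was called (-0.19, adjusted p = 0.0448), and Farsa was called without WT female 4 (0.21, adjusted p = 0.0352). The cause of these changes was not tested. No paired analysis was possible because the labels link no mice. The number in a library's name follows the order of deposition within its group, and whether it pairs any mice is not labelled. Depth limits Pars2 most, with 48 counts in its lowest library.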
